A study of Mus musculus with 21 samples.

Results

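The fetal and stress program of the heart was described through 10 genes, Nppa, Nppb, Myh7, Acta1, Ankrd1, Rcan1, Xirp1, Xirp2, Myl4 and Myl7. They were taken by name from the 46517 genes of a bulk RNA-seq count table, which measures polyadenylated RNA of the whole tissue, and all 10 were found. The table holds hearts of 4 control (Notch3+/+) mice and 3 Notch3-/- mice on the C57BL/6J strain, with 3 technical libraries from each mouse and 21 libraries in all. The tissue is labelled heart, and the protocol states that frozen left ventricle was used. The mice were 10 to 14 months old, and their sex is not given in the sources used here. In the Notch3-/- mice a lacZ insertion disrupts Notch3 in all cells of the body. The 3 libraries of a mouse were summed, for totals of 3046326 to 4638786 counts in the controls and of 3828763 to 5167869 in the Notch3-/- mice. The labels of control mice 1 and 2 begin with X and those of the other 5 mice with k, and what the letters mean is not given. For the 10 genes, fold changes among the k-labelled mice are therefore given beside those of all mice, while listed genes are given for all mice only.

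The ventricle of the embryo expresses a set of genes that is turned down after birth and can return when the adult heart is loaded or injured. The set includes natriuretic peptides, which lower blood volume and pressure, and contractile proteins that stand in for their adult counterparts. Genes of the Z-disc and the intercalated disc, where sarcomeres are anchored and cells are joined, and Rcan1, a target and regulator of the phosphatase calcineurin, respond to the same kinds of load.

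Notch3 (ENSMUSG00000038146, chromosome 17 from 32120820 to 32166852, minus strand, GRCm38) was examined first, since it is the targeted gene. Its counts were 174, 200, 245 and 185 in controls 1 to 4 and 22, 36 and 25 in Notch3-/- mice 1 to 3. All 3 Notch3-/- mice were below all 4 controls, at a log2 fold change of -3.16 (SE 0.23, edgeR quasi-likelihood FDR 0.00173 by the Benjamini-Hochberg method over all genes tested). Among the k-labelled mice it was -3.29, with an edgeR FDR of 0.206 by the same method.

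All 10 genes passed the expression filter of edgeR. None of the 10 was called as different between the genotypes, a call being an FDR under 0.05 and a fold change of at least 1.5, where 1 of the 14324 genes tested was called (0.00698%), which is Notch3. None had an unadjusted p under 0.05 in edgeR, beside 1051 genes that were higher (7.34%) and 437 that were lower (3.05%). DESeq2 called 601 of the 17013 genes it gave an adjusted p and none of the 10. None of the 10 had an unadjusted p under 0.05 there, beside 6.70% of the 28790 genes with a count. The 4 control and 3 Notch3-/- mice overlapped for all 10 genes, where 4.57% of the genes tested did not overlap and were higher and 3.96% did not overlap and were lower. Of the 10 genes, 5 had a positive and 5 a negative log2 fold change, with a median of 0.03 beside -0.0028 for all genes tested. This balance needs the X-labelled controls, since among k-labelled mice 9 of the 10 were negative, all except Xirp1, with a median of -0.35. Over all 7 mice their edgeR FDR after Benjamini-Hochberg adjustment lay between 0.501 and 0.959. Without control mouse 3, 2 of the 10 genes had an unadjusted p under 0.05 in edgeR, beside 8.18% of all genes tested. Without Notch3-/- mouse 2, 1 of the 10 had, beside 6.51%. A p that misses the threshold does not show that the levels were alike, and the mice differed widely within each genotype.

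**Figure D1:**
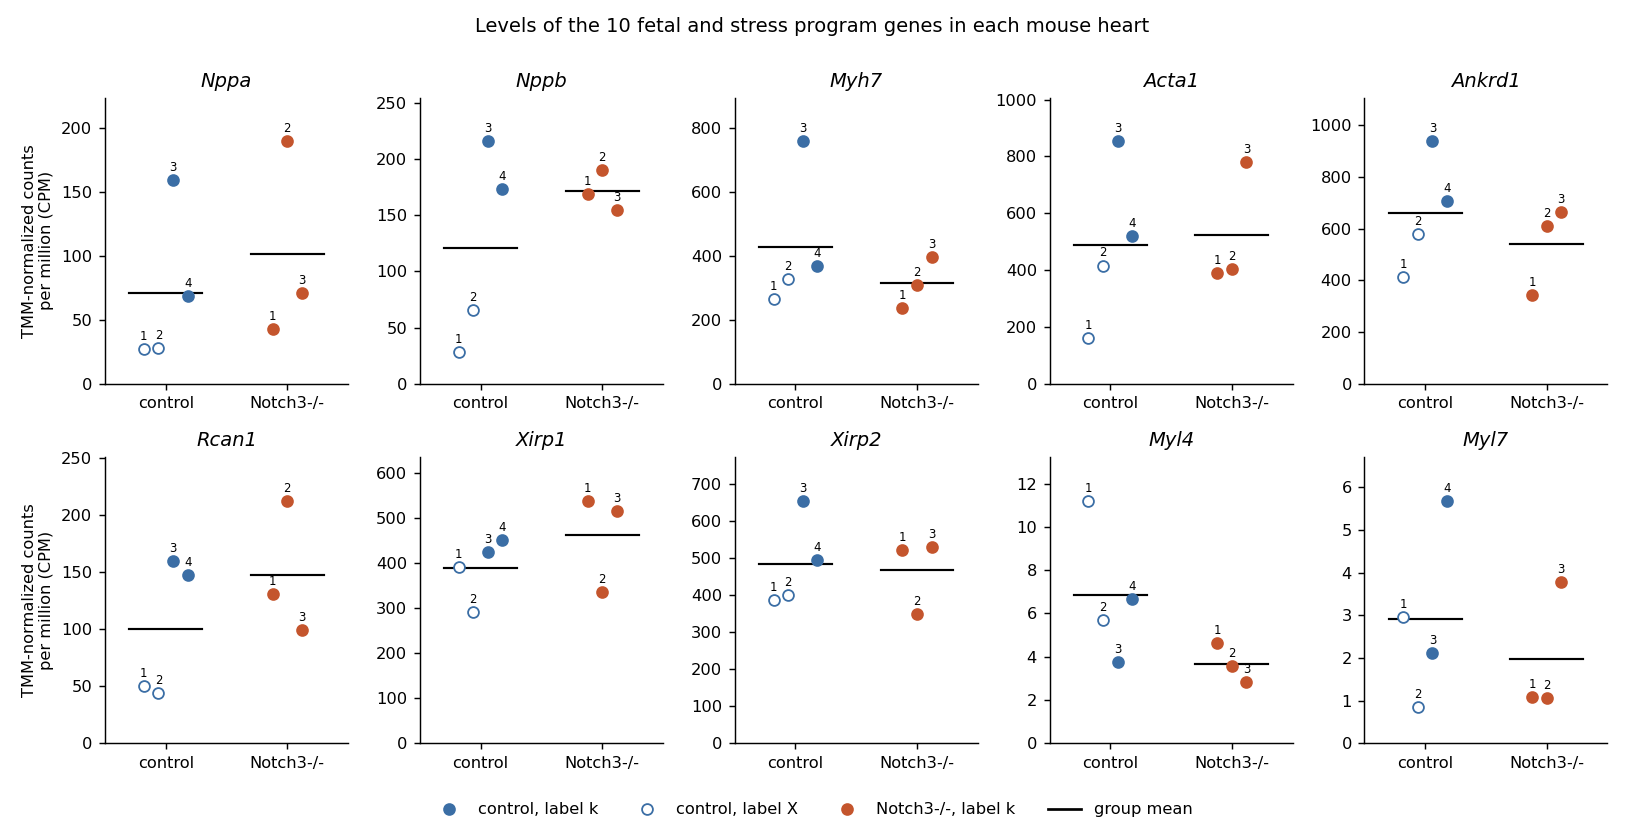
Level of each of the 10 genes in each mouse, as CPM (counts scaled to the library total with TMM factors, linear axes from 0); points are mice with their number, open points are control mice with labels starting with X, and lines are group means. The genotypes overlap in every panel, and control mice 1 and 2 are the lowest mice for Nppa, Nppb and Rcan1.

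Nppa and Nppb encode the atrial and brain natriuretic peptides. They lie next to each other on chromosome 4, on the same strand, and the start of Nppa lies 13517 bases after the end of Nppb. Nppb (ENSMUSG00000029019) runs from 147985788 to 147987205 and Nppa (ENSMUSG00000041616) from 148000722 to 148002079, on the plus strand of GRCm38. By the SD of log2(CPM + 1), these 2 neighbours had the widest spread of the 10 genes among control mice. The 250 bases before the RefSeq start of each, which for Nppb lies 112 bases inside the GENCODE gene, are therefore shown. They come from a table of RefSeq starts on GRCm38.p6, in which 9 of the 10 genes were matched, and the capitals mark the motifs that were searched on both strands.
Nppa, chr4:148000472-148000721, plus strand: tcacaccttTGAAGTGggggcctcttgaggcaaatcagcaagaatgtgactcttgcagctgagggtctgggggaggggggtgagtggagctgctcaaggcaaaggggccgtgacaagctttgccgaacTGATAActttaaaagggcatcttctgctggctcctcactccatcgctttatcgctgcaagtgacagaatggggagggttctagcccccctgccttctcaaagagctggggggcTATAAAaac
Nppb, chr4:147985650-147985899, plus strand: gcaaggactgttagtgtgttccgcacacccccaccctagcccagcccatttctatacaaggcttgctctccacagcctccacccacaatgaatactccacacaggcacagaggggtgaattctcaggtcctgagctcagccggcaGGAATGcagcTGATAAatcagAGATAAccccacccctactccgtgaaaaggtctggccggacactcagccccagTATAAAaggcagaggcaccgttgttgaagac
The motifs were TATAAA, the GATA motifs TGATAA and AGATAA, the M-CAT motif CATTCC, the NK element TGAAGTG and the CArG box, a binding element of serum response factor. Both windows hold TATAAA and TGATAA, which are in 12.4% and 7.94% of the 32851 windows of all genes. AGATAA is in the Nppb window and in 9.99% of all windows, and TGAAGTG is in the Nppa window and in 3.31%. The Nppb window also holds the M-CAT motif in reverse, and 12.6% of all windows hold it on either strand. A match describes letters and does not show that a factor binds there.

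Nppa had 27.0, 27.8, 159.7 and 68.5 CPM in control mice 1 to 4 and 42.6, 189.7 and 71.1 CPM in Notch3-/- mice 1 to 3. Control mouse 3 and Notch3-/- mouse 2 stood above the other mice, 1 of each genotype. The highest mouse had 7.03 times the level of the lowest. Between genotypes the log2 fold change was 0.51 (SE 0.65, edgeR FDR 0.835 after Benjamini-Hochberg adjustment). Its sign rests on Notch3-/- mouse 2, without which it was -0.31, and it was 1.29 without control mouse 3 and -0.18 among k-labelled mice. Gm13054, an antisense gene that shares 532 exon bases with Nppa, was counted 63, 95, 511 and 152 times in controls and 117, 655 and 283 times in Notch3-/- mice. Whether the counting used strand is not stated, so reads of Nppa and Gm13054 cannot be told apart.

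Nppb had 28.3, 66.0, 215.7 and 173 CPM in control mice 1 to 4 and 169, 190.1 and 155 CPM in Notch3-/- mice 1 to 3. The Notch3-/- mice lay close together, while the control mice spanned a 7.62-fold range, with both X-labelled mice below all 5 k-labelled mice. The log2 fold change was 0.50 (SE 0.53, edgeR FDR 0.787 after Benjamini-Hochberg adjustment), and it ran from 0.18 without control mouse 1 to 0.93 without control mouse 3. Among k-labelled mice the sign was the opposite, at -0.19 (edgeR FDR 0.846, Benjamini-Hochberg). The X-labelled mice are of 1 genotype. No fit held genotype and label together, so the part of the label in the difference between genotypes was not tested.

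Of the 12 genes listed for natriuretic peptide processing and receptors, 11 were in the table and 10 were tested, of which 2 were higher with an unadjusted p under 0.05 in edgeR, 0 were lower and 0 were called by it, while DESeq2 called 1, Pde9a. Corin, the protease that activates the atrial peptide, was the most abundant of them, with 340 ± 75.9 CPM (SD, n = 4) in control and 317 ± 68.8 CPM (SD, n = 3) in Notch3-/- mice. Pde9a, a phosphodiesterase that breaks down cyclic GMP, had 2.96, 6.32, 4.00 and 3.34 CPM in control mice and 15.3, 19.1 and 5.48 CPM in Notch3-/- mice. It was high in Notch3-/- mice 1 and 2, while mouse 3 lay within the control range (log2 fold change 1.64, edgeR FDR 0.223 and DESeq2 FDR 0.0377 after Benjamini-Hochberg adjustment). Mme, the peptidase neprilysin that degrades natriuretic peptides, had a log2 fold change of 0.42 (edgeR FDR 0.445 after the same adjustment). The median log2 fold change of the list was -0.02.

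Notch3-/- mice 1 and 2 were also those with RNA of hepatocyte markers. The 12 markers summed to 112.5 to 290.2 CPM in the control mice and to 6567, 10020 and 259 CPM in Notch3-/- mice 1 to 3. Alb was the most abundant in Notch3-/- mice 1 and 2, with 1705 and 1875 CPM. All 11 tested markers were higher with an unadjusted p under 0.05 in edgeR, DESeq2 called all 12, and none was at 0 counts in all mice. Their part in the levels of the 10 genes was not tested. With Notch3-/- mouse 3 as the only mouse of its genotype, the spread comes from the control mice alone, so only effect sizes are given here. The edgeR log2 fold change was then 0.0002 for Nppa, 0.36 for Nppb, -0.12 for Myh7, 0.68 for Acta1 and 0.0121 for Ankrd1. For Rcan1 it was -0.0069, for Xirp1 0.41, for Xirp2 0.13, for Myl4 -1.23 and for Myl7 0.44. The sign was the reverse of that over all mice for Ankrd1, Rcan1, Xirp2 and Myl7.

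Myh7 (ENSMUSG00000053093, chromosome 14 from 54970684 to 54994626, minus strand) encodes the slow beta myosin heavy chain, which the mouse ventricle uses before birth. It had 263, 326, 757 and 368 CPM in control mice 1 to 4 and 237, 309.8 and 396 CPM in Notch3-/- mice 1 to 3. Control mouse 3 had the highest level, and the other 6 mice lay between 237 and 396 CPM. Its log2 fold change of -0.45 (SE 0.34, edgeR FDR 0.678 after Benjamini-Hochberg adjustment) became -0.03 when control mouse 3 was left out and -0.85 among k-labelled mice. Mhrt, an antisense gene that overlaps Myh7, was counted 311, 384, 479 and 291 times in controls and 317, 291 and 503 times in Notch3-/- mice, and without strand its reads cannot be told apart from those of Myh7. Gm29015 overlaps Myh7 and Gm13601 overlaps Xirp2 in the same way, with 30 to 140 and 25 to 93 counts per mouse. Myh6, the adult alpha myosin heavy chain, lies 3757 bases from Myh7 and is similar in sequence, so reads may also be shared between these genes.

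Acta1 (ENSMUSG00000031972, chromosome 8 from 123891769 to 123894751, minus strand) encodes skeletal alpha actin, the actin of the fetal ventricle that accompanies cardiac alpha actin. The 250 bases before its RefSeq start are shown with those of Ankrd1, since both hold matches to muscle motifs. The whole Ankrd1 window lies inside the GENCODE gene, which runs from 36111961 to 36120099. The RefSeq start of Ankrd1 lies 66 bases from the nearest GENCODE transcript start.
Acta1, chr8:123894776-123895025, minus strand: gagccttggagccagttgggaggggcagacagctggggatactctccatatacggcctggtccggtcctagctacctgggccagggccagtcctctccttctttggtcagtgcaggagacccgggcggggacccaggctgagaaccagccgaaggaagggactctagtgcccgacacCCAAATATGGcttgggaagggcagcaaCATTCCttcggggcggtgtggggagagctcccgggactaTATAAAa
Ankrd1, chr19:36119845-36120094, minus strand: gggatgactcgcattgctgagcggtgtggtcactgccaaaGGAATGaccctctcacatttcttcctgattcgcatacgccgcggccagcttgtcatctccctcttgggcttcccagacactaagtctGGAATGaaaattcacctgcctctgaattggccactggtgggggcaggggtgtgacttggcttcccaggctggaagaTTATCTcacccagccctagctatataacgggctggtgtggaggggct
The capitals mark TATAAA, the M-CAT motif CATTCC and a CArG box before Acta1, and the M-CAT motif at 2 places and AGATAA, all in reverse, before Ankrd1. The CArG box is in 1.47% of all windows and in those of 2 of the 9 genes, Acta1 and Myl7. The M-CAT motif was found for 5 of the 9 genes, Acta1, Ankrd1, Myh7, Myl7 and Nppb. Xirp1 was not matched in that table.

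Acta1 had 159.7, 416, 853 and 519 CPM in control mice 1 to 4 and 389, 404 and 780.2 CPM in Notch3-/- mice 1 to 3. Control mouse 1 was the lowest of the 7 mice, and control mouse 3 and Notch3-/- mouse 3 were the highest. For Acta1 the log2 fold change was 0.11 (SE 0.46, edgeR FDR 0.959 after Benjamini-Hochberg adjustment), and it was -0.18 without control mouse 1 and -0.39 in the k-labelled mice. Acta1 is also the main actin of skeletal muscle, so markers of that tissue are given. Of the 12 skeletal muscle markers, Notch3-/- mouse 2 had the highest counts for all except Mybpc2 and Myf6, with 94 counts of Atp2a1, 69 of Tnnt3 and 39 of Myh4, while Myh4 had 0 to 1 counts in the other mice. The list summed to 29.6, 55.4, 46.6 and 32.7 CPM in control mice and 21.3, 92.8 and 59.6 CPM in Notch3-/- mice. Mybpc2 was the most abundant on average but gave 21.7 of the 92.8 CPM in Notch3-/- mouse 2, and Myf6 was at 0 in all mice. Acta1 was not high in Notch3-/- mouse 2.

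Myl4 (ENSMUSG00000061086, chromosome 11 from 104550663 to 104595753, plus strand) and Myl7 (ENSMUSG00000020469, chromosome 11 from 5896637 to 5898782, minus strand) encode the essential and regulatory light chains of the atrial myosin. Both were near the detection limit in this tissue. Myl4 counts were 34, 27, 16 and 20 in controls 1 to 4 and 17, 17 and 15 in Notch3-/- mice 1 to 3. On the CPM scale the Notch3-/- mice, at 4.64, 3.58 and 2.84, were low against controls at 3.76 to 11.2, with mice 2 and 3 below all controls and mouse 1 within their range. Its log2 fold change of -0.88 (SE 0.42) had the lowest unadjusted p of the 10 genes in edgeR, 0.0636, with an FDR of 0.501 after Benjamini-Hochberg adjustment, and among k-labelled mice it was -0.50. Myl7 counts were 9, 4, 9 and 17 in controls and 4, 5 and 20 in Notch3-/- animals. The ranges overlap, and the log2 fold change was -0.44 (SE 0.68, edgeR FDR 0.869 after Benjamini-Hochberg adjustment), against -0.91 among k-labelled mice.

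The atrium expresses Nppa, Myl4 and Myl7 strongly, and its markers were therefore read beside them. Of the 10 markers listed, Pam, Kcnk3, Kcnj3, Gja5, Sbk2, Stard10 and Dkk3 were present in all mice. Kcnk3 was at 152.5 to 313 CPM and Gja5 at 16.4 to 30.5 CPM. Mybphl was near 0, with 0 to 3 counts per mouse. Sln counts were 17, 7, 1 and 11 in controls and 1, 1 and 0 in Notch3-/- mice, with overlap at 1 count and low in the Notch3-/- mice as for Myl4, and too few for the edgeR filter (DESeq2 FDR 0.0765). Bmp10 was seen in Notch3-/- mice 2 and 3 only, with 9 and 7 counts. Of these markers 7 were tested, and Stard10 and Dkk3 were higher with an unadjusted p under 0.05 in edgeR, of which DESeq2 called Stard10. Stard10 had 220 and 619 counts in Notch3-/- mice 1 and 2 and 21 to 29 in the other mice, and so stood high in the same mice as the hepatocyte markers. The 10 markers summed to 799, 895, 628 and 643 CPM in control mice and 639, 778 and 630.5 CPM in Notch3-/- mice, with Pam the most abundant. The ventricular and cardiomyocyte markers were all found, and 0 of 6 and 0 of 10 had an unadjusted p under 0.05. All 6 and all 10 had a negative log2 fold change, with medians of -0.24 and -0.20. Counts of several of them, such as Myl3 with a slope of 0.20, rose less than in proportion to library total, as described further on. The Notch3-/- mice had the higher median total, and the part of depth in these medians was not tested. Fewer cells of a type and less RNA per cell cannot be told apart in bulk tissue.

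The fetal isoforms were then set against their adult counterparts within each mouse, as the ratio of counts per exon kilobase, which does not depend on the scaling between mice but does depend on depth, as the slopes given further on show. Myh7 stood at 3.94%, 7.04%, 15.3% and 5.82% of Myh6 in control mice 1 to 4 and at 4.10%, 7.54% and 8.80% in Notch3-/- mice 1 to 3. The mean log2 ratio differed by -0.12 between Notch3-/- and control mice (p = 0.914, two-sided exact permutation test over 35 divisions of the mice, 0.914 after Benjamini-Hochberg adjustment over 4 ratios). Acta1 stood at 8.996%, 33.4%, 59.9% and 28.5% of Actc1 in control mice and at 24.4%, 34.0% and 65.7% in Notch3-/- mice. The log2 ratio differed by 0.50 (p = 0.571 in the exact permutation test, adjusted 0.914). Myl4 to Myl3 stood between 0.163% and 0.406% in all mice, with a difference of -0.53 on the log2 scale (exact permutation p = 0.171, adjusted 0.686). Myl7 to Myl2 stood between 0.417% and 2.07%, with a difference of -0.24 (exact permutation p = 0.800, adjusted 0.914). Among k-labelled mice the differences were -0.54 for Myh7, -0.12 for Acta1, -0.16 for Myl4 and -0.78 for Myl7. The genotypes overlapped for all 4 ratios over all mice, and 0.0286 is the smallest p that this design can give.

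**Figure D2:**
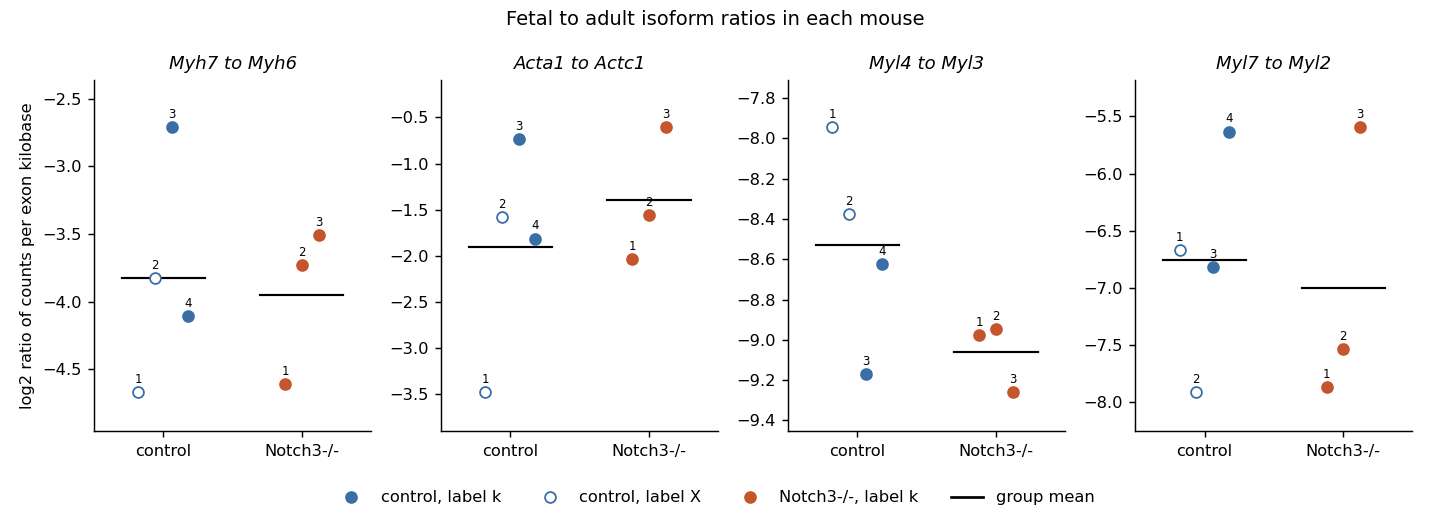
Log2 ratio of counts per exon kilobase of each fetal isoform to its adult counterpart in each mouse (points, numbered; open points are X-labelled control mice; lines are group means). The genotypes overlap in all 4 panels, and the Myh7 ratio is highest in control mouse 3, at 15.3% of Myh6.

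The adult isoforms that form the lower part of these ratios hardly followed sequencing depth. Counts of Myh6 ranged from 14789 to 18571 per mouse and those of Actc1 from 5679 to 6620, although totals ranged from 3046326 to 5167869. Between the technical libraries of a mouse, the slope of log2 count on log2 library total was 0.31 (SE 0.05) for Myh6 and 0.21 (SE 0.03) for Actc1, where 1 means in proportion to depth. With a slope of 1.10 (SE 0.10) for Myh7 and 0.63 (SE 0.08) for Acta1, the ratios of Myh7 to Myh6 and of Acta1 to Actc1 are larger in deeper libraries, and the median total was 5086740 in Notch3-/- and 3649833 in control mice. The median slope over 5936 genes whose counts reach 100 in each of the mice was 1.14. It was 1.18 for genes with under 0.05 counts per exon base in their highest library and 0.35 for the 29 genes with 1 or more. Among the 10 genes, Acta1 reached 1.04 counts per exon base with a slope of 0.63 (SE 0.08), and Ankrd1 reached 0.554 with a slope of 0.82 (SE 0.07). Nppb reached 0.425 with a slope of 0.72 (SE 0.20), and its count was between 277 and 332 in the libraries of control mouse 3 and Notch3-/- mouse 2 and in 1 library of Notch3-/- mouse 3. Nppa reached 0.369 counts per exon base, with a slope of 0.98 (SE 0.23). Myh7, Rcan1, Xirp1 and Xirp2 stayed under 0.2 counts per exon base, with slopes of 1.00 to 1.18. Myl4 and Myl7, which had few counts, also stayed under 0.2, with slopes of 0.19 (SE 0.41) and 0.76 (SE 0.46). Counts of Acta1 and Ankrd1, and those of the adult isoforms, thus followed depth less than in proportion. No gene of 200 or more exon bases exceeded 1.97 counts per exon base, and the cause of this levelling was not tested. Levels, fold changes and places in the order by level may be compressed for Acta1, Ankrd1 and Nppb. Levels and fold changes of the adult isoforms may be compressed as well. The percentages of Myh6 and Actc1 given for Myh7 and Acta1 may therefore be too high. All 6 adult counterparts had a negative log2 fold change (median -0.27), and 0 of 6 had an unadjusted p under 0.05. Each of these 6 is also a cardiomyocyte or ventricular marker listed above, so these lists are not separate observations.

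**Figure D3:**
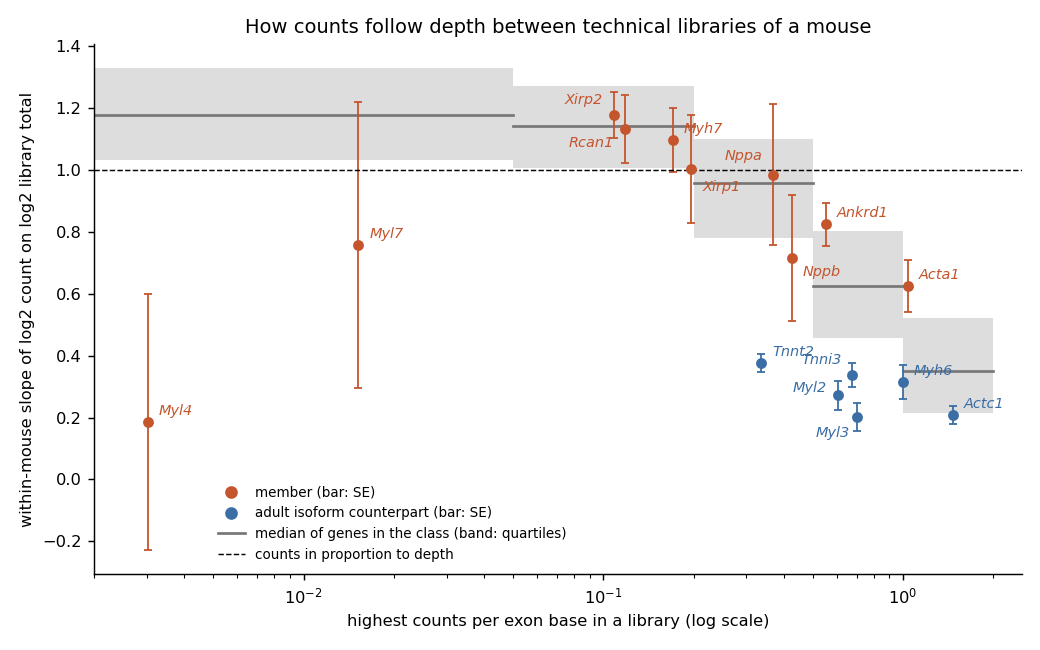
Slope of log2 count on log2 library total between the 3 technical libraries of a mouse, pooled over 7 mice, against the highest number of counts per exon base in a library (log axis); points are genes with their SE, grey lines and bands the median and quartiles of all genes in a class. Acta1 (0.63), Ankrd1 (0.82) and the adult counterparts lie under the dashed line at 1, which marks counts in proportion to depth.

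Ankrd1 (ENSMUSG00000024803, chromosome 19 from 36111961 to 36120099, minus strand) encodes a titin-binding protein of the I-band that also enters the nucleus. It had 411, 581, 937 and 706 CPM in control mice 1 to 4 and 343, 612 and 664 CPM in Notch3-/- mice 1 to 3. Notch3-/- mouse 1 was the lowest and control mouse 3 the highest. With a log2 fold change of -0.29 Ankrd1 was not called (SE 0.29, edgeR FDR 0.774 after Benjamini-Hochberg adjustment). Both k-labelled controls lay above the 3 Notch3-/- mice, which held for none of the other 9 genes and, in either direction, for 23.5% of all genes tested in those 5 mice, with a log2 fold change of -0.61 (edgeR FDR 0.737 after the same adjustment).

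Xirp1 (ENSMUSG00000079243, chromosome 9 from 120013755 to 120023598, minus strand) and Xirp2 (ENSMUSG00000027022, chromosome 2 from 67446002 to 67526614, plus strand) encode actin-binding repeat proteins of the intercalated disc. Xirp1 had 391, 291, 426 and 451 CPM in control mice 1 to 4 and 539, 337 and 516 CPM in Notch3-/- mice 1 to 3. Notch3-/- mice 1 and 3 were above all control mice, and Notch3-/- mouse 2 was within their range. The log2 fold change was 0.25 (SE 0.19, edgeR FDR 0.687 after Benjamini-Hochberg adjustment), and it was 0.44 without Notch3-/- mouse 2 (unadjusted p 0.0208, edgeR FDR 0.619) and 0.08 among k-labelled mice. The technical libraries of a mouse differed more for Xirp1 than the control mice did, with an SD of 0.33 between libraries and 0.27 between control mice on the log2 scale. In Notch3-/- mouse 3 its libraries had 463, 825 and 377 CPM. Xirp2 had 386, 399, 653.5 and 494 CPM in control mice and 520.0, 349 and 530.1 CPM in Notch3-/- mice. The ranges were alike, with a log2 fold change of -0.05 (SE 0.21, edgeR FDR 0.956 after Benjamini-Hochberg adjustment) that was -0.30 among k-labelled mice.

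Of 26 listed Z-disc, costamere and intercalated disc partners, 25 were tested, of which 3 were lower with an unadjusted p under 0.05, 0 were higher and 0 were called by edgeR or DESeq2. They are Trim63, Fbxo32 and Tcap. Trim63, a ubiquitin ligase of the sarcomere, had 358, 365, 351 and 388 CPM in control mice and 231, 221.5 and 285 CPM in Notch3-/- mice. All 3 Notch3-/- mice were below all 4 controls (log2 fold change -0.57, edgeR FDR 0.133 and DESeq2 FDR 0.00236 after Benjamini-Hochberg adjustment, under the 1.5-fold threshold in both). Fbxo32, a ubiquitin ligase subunit that also marks muscle protein breakdown, was at 229 ± 16.5 CPM (SD, n = 4) and 179 ± 19.3 CPM (SD, n = 3), with a log2 fold change of -0.35 (edgeR FDR 0.356 after the same adjustment). The median of the list was -0.11.

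Rcan1 (ENSMUSG00000022951, chromosome 16 from 92391953 to 92470867, minus strand) had 50.05, 43.8, 159.5 and 147 CPM in control mice 1 to 4 and 130.3, 212 and 99.5 CPM in Notch3-/- mice 1 to 3. As for Nppb, both X-labelled control mice were below all 5 k-labelled mice. The log2 fold change was 0.56 (SE 0.46, edgeR FDR 0.720 after Benjamini-Hochberg adjustment). Over all mice this was the highest of the 10 genes, closely followed by Nppa at 0.51 and Nppb at 0.50. With a mouse left out Rcan1 ran from 0.20 to 0.86, and without control mouse 3 Nppa was higher, at 1.29. Among k-labelled mice Rcan1 was at -0.06 (edgeR FDR 0.983 after the same adjustment). Rcan1 is transcribed from 2 RefSeq starts, of which the downstream one is known to respond to NFAT, and gene counts do not separate them. All 16 listed genes of calcineurin and NFAT were tested, and 0 had an unadjusted p under 0.05. Rcan2, the most abundant of them, was at 686 ± 46.55 CPM (SD, n = 4) and 635 ± 83.5 CPM (SD, n = 3), and the median log2 fold change of the list was -0.12.

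Per exon length, the order of the 10 genes by mean level in control mice was Acta1, Ankrd1, Nppb, Nppa, Xirp1, Myh7, Xirp2, Rcan1, Myl7 and Myl4. In control mice Acta1 stood at 317 ± 187 CPM per exon kilobase (SD, n = 4), and Myl4 at 1.47 ± 0.68 on the same scale. By the means of Notch3-/- mice, Nppb (219) was above Ankrd1 (187), and Rcan1 (47.8) was above Xirp2 (38.9) and Myh7 (36.5). Neighbours in this order often changed places. Acta1 was above Ankrd1 in 6 of 7 mice and Nppa above Xirp1 in 3, while Nppb was above Nppa, Rcan1 above Myl7 and Myl7 above Myl4 in all 7. The length is that of all annotated exons of a gene together, 4637 bases for Myl4 and 590 for Myl7. Without division by length, Myl4 was above Myl7 in every mouse except Notch3-/- mouse 3. The same lengths enter the isoform ratios above.

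The spread among control mice was wide for several of these genes. The SD of log2(CPM + 1) over the 4 control mice was 1.33 for Nppb, 1.2007 for Nppa, 1.01 for Acta1 and 0.98 for Rcan1, beside a median of 0.24 for the 14324 genes tested. For Nppb 99.7% of the genes tested had a smaller SD, and for Xirp1 59.5%. The 3 Notch3-/- mice had an SD of 0.15 for Nppb and 1.08 for Nppa. Technical libraries of a mouse differed by an SD of 0.40 for Nppb and 0.39 for Nppa on a similar scale, less than the control mice did, but more than the Notch3-/- mice did for Nppb.

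**Figure D4:**
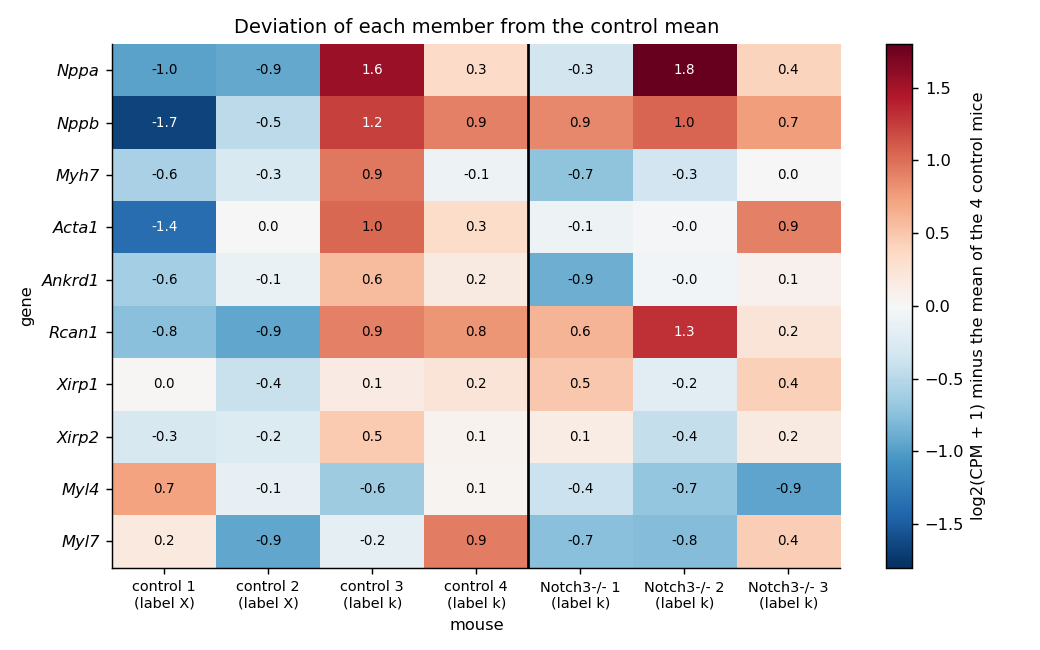
Difference of log2(CPM + 1) from the mean of the 4 control mice for each gene (rows) and mouse (columns; the label is in brackets). For Nppb control mouse 1 is at -1.66 and control mouse 3 at 1.22, and the 3 Notch3-/- mice lie between 0.75 and 1.04.

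By the median over the 10 genes, control mice 1 and 2 were at -0.60 and -0.34 from the control mean on the log2 scale, and control mice 3 and 4 at 0.74 and 0.28. Notch3-/- mice 1 to 3 were at -0.21, -0.12 and 0.31, within the control range. Control mouse 3 had the highest level of 5 of the 10 genes. The mean of the k-labelled controls was 4.16 times that of the X-labelled controls for Nppa, 4.12 times for Nppb and 3.27 times for Rcan1, and 0.62 times for Myl4. With 2 mice a label this is a description without a test.

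Of the 45 pairs of the 10 genes, 36 had a Pearson r above 0 over the 7 mice and 30 over the 5 k-labelled mice, and 0 of those over 7 mice had an adjusted p under 0.05 in an exact permutation test over pairings. Myh7 and Ankrd1 had the lowest p of Pearson's r, with r = 0.90 (exact permutation p = 0.00218, adjusted 0.0982 over 45 pairs) and Spearman's rho = 0.93 (exact permutation p = 0.00675, adjusted 0.101). By rank, Myh7 and Acta1 had the lowest p, with rho = 0.96 (exact permutation p = 0.00278, adjusted 0.101) and r = 0.74. For Myh7 and Ankrd1 without the 2 mice farthest from the median of Myh7, control mouse 3 and Notch3-/- mouse 1, r was again 0.90. For Nppb and Rcan1 the X-labelled mice formed a separate low cluster, and no r over all mice is given. A relation within the 5 k-labelled mice was not tested.

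**Figure D5:**
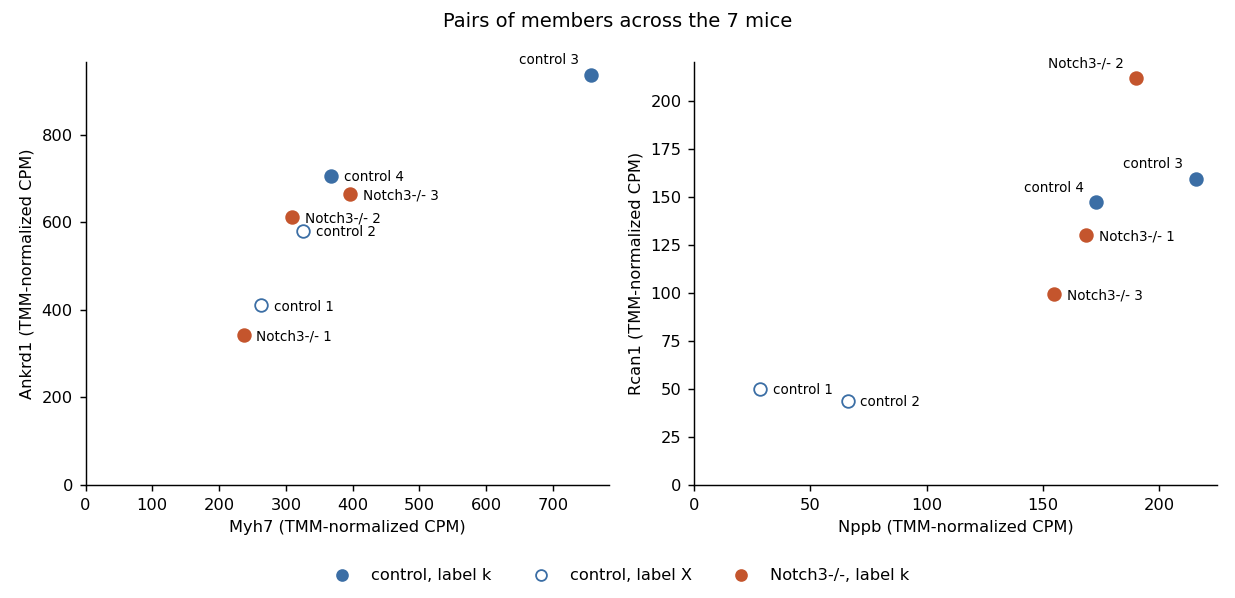
Ankrd1 against Myh7 and Rcan1 against Nppb in each mouse (CPM, linear axes from 0; open points are X-labelled control mice). Ankrd1 and Myh7 are both highest in control mouse 3, and control mice 1 and 2 lie apart from the other 5 mice in Rcan1 and Nppb.

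Genes outside the 10 with the most similar pattern were sought among 10720 tested genes with a mean of at least 10 CPM, as a description over 7 mice that share their libraries and labels. Nppa was most like its antisense gene Gm13054, followed by N4bp2l2 and Cd83. For Nppb the nearest were Pdcd6, Wdr75 and Exd2, in all of which both X-labelled mice lie below all 5 k-labelled mice, so no r is given for them. Myh7 was closest to Mcts2 (r = 0.99), Klhl12 and Lsmem1 (both r = 0.97). Acta1 was closest to Edn3 (r = 0.99), which encodes endothelin 3 and was counted 10, 71, 255 and 84 times in controls and 50, 66 and 227 times in Notch3-/- mice, and then to Gm17197 and Tfdp1 (both r = 0.97).

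Transcription factors and other stress genes were read from lists. All 18 listed cardiac and load-related transcription factors were tested, and 1, Mrtfa, a coactivator of serum response factor, was higher with an unadjusted p under 0.05 (log2 fold change 0.49, edgeR FDR 0.426 after Benjamini-Hochberg adjustment). Mrtfa was at 36.9 and 39.5 CPM in Notch3-/- mice 1 and 2, those with hepatocyte RNA, and at 25.5 CPM in mouse 3, within the control range of 22.55 to 26.7. The median of that list was -0.13. Of 20 secreted and cytoplasmic stress genes 17 were tested, and Timp1 and Postn were higher and Thbs4 was lower with an unadjusted p under 0.05 in edgeR. DESeq2 called Spp1, which the edgeR filter leaves out, with 97 counts in Notch3-/- mouse 2 and 3 to 10 in the other mice. Timp1, an inhibitor of matrix proteases, had 12 to 13 counts in each control mouse and 29, 37 and 27 in the Notch3-/- mice (log2 fold change 1.04, edgeR FDR 0.323 after Benjamini-Hochberg adjustment). The median of that list was -0.13. Of 7 other fetal or slow muscle isoforms 5 were tested, and Myl1 and Myl9 were lower with an unadjusted p under 0.05, with a median of -0.38. Myl9 and Acta2 of this list are also smooth muscle markers, given below, so the lists are not separate. Myl1, a light chain of fast muscle and the fetal heart, had 97.1, 93.4, 95.8 and 83.8 CPM in control mice and 52.7, 64.2 and 78.3 CPM in Notch3-/- mice, without overlap (edgeR FDR 0.290 after Benjamini-Hochberg adjustment).

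Markers of the other cells of the heart were as follows. Of 6 smooth muscle markers 5 were tested and 3 were lower with an unadjusted p under 0.05, Tagln, Myl9 and Myh11, the last with 121, 97, 45 and 59 counts in control and 12, 24 and 19 in Notch3-/- mice (log2 fold change -2.49, edgeR FDR 0.118 after Benjamini-Hochberg adjustment). DESeq2 called Myh11 at an FDR of 5.53e-05. Of the 5 tested, 4 had a negative log2 fold change and 1, Acta2, a positive one of 0.15, with a median of -0.88. Acta2 had 160.0, 166.9, 83.5 and 89.2 CPM in control mice 1 to 4. It had 267, 36.0 and 114 CPM in Notch3-/- mice 1 to 3. Of 7 fibroblast markers Col1a1, Col1a2 and Col3a1 were higher and Dcn was lower with an unadjusted p under 0.05, and Col3a1, the type III collagen chain, had a log2 fold change of 0.79 (edgeR FDR 0.126 and DESeq2 FDR 0.00113 after the same adjustment). DESeq2 called Col3a1 and Col1a1. None of 6 endothelial or 6 macrophage markers had an unadjusted p under 0.05, with medians of 0.05 and 0.15, and 2 of 5 erythroid markers, Hba-a1 and Hbb-bs, were lower by that p, with a median of -0.48. The part of these cells in the levels of the 10 genes was not tested.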

How the data were processed

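The authors deposited whole-number counts of reads per Ensembl gene, not normalized, for 21 libraries; the cDNA was amplified by PCR and no molecular barcodes are named. The submitters' processing notes name mm10 and CASAVA. The aligner, counting program, strand use and treatment of duplicates are not given in the sources used here, so whether duplicated reads were counted or removed is not known. The 92 spike-in lines (34 counts) were left out. Of 46517 gene identifiers, 46005 were found in GENCODE vM21, the source of coordinates and exon lengths.

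Counts were summed per mouse and fitted with genotype as the only term in edgeR 4.0.16 (R 4.3.3, filterByExpr, TMM factors, quasi-likelihood F-test, Benjamini-Hochberg over all genes tested). DESeq2 1.42.0 and limma 3.58.1 were alternatives. The CPM values were computed here, with 1 added before logs. Ratios and correlations were tested by exact permutation over mice, and the pipeline was tested on simulated data. Alternatives changed normalization, filter, mice, libraries, depth and threshold.

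The members and gene lists were chosen with earlier results of these data known. A rule limited which genes could be named. It allowed the 10 members, Notch3, and from each list the 2 most abundant and the 2 with the lowest p. It also allowed any adult isoform, atrial or skeletal muscle gene, and the 3 genes nearest in pattern to Nppa, Nppb, Myh7 and Acta1. Not every gene that it allowed is named, and for several lists only genes with an unadjusted p under 0.05 or a DESeq2 call are. Postn, Tcap, Tagln, Col1a2 and Spp1, named to complete a count, and the antisense genes Mhrt, Gm29015 and Gm13601 fall outside this rule and were chosen after their values were seen.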

Additional observations from a re-analysis of the deposited data

How the results depend on the processing

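No member was called under any alternative in which it was tested. Myl4 was tested in 14 and Myl7 in 11 of the 19 alternatives in which the other members were, and the lowest edgeR, DESeq2 or limma FDR of a member was 0.225 after Benjamini-Hochberg adjustment. Of 177 member log2 fold changes under alternatives, 163 kept their sign. The count of genes called in the whole table was 601 with DESeq2, 639 with every gene of at least 1 count, 0 in the k-labelled mice, 1 after random thinning of the counts to the smallest mouse total, 48, 39 and 77 with technical library 1, 2 or 3 alone, and 1 to 936 with a mouse left out, the highest without Notch3-/- mouse 3. Members with an unadjusted p under 0.05 numbered 0 to 2 with a mouse left out and 1 of 9 tested after thinning, Myl4 at -1.12 (edgeR FDR 0.429 after Benjamini-Hochberg adjustment), beside 10.3% of all genes tested. Members whose mice did not overlap numbered 0 to 1 with a mouse left out, 1 in the k-labelled mice and 2 with Notch3-/- mouse 3 alone, where 12.1% to 26.0%, 23.5% and 41.05% of all genes tested did not overlap. The causes were not tested.

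In limma-voom on 21 libraries with the mouse as a random effect, 65 genes were called and 2 of the 8 members tested, Nppb and Rcan1, had an unadjusted p under 0.05, beside 13.3% of all genes tested. The fit used 1 correlation of 0.152 between libraries of a mouse for every gene. For Nppb and Rcan1 the SD was 1.43 and 1.00 between control mice, against 0.40 and 0.18 between libraries of a mouse. The p of these 2 genes thus rests on 21 libraries more than on 7 mice. With the technical replicate number as a replicate block, 62 genes were called and the same 2 of 8 members passed, beside 12.9%. The number does not pair the libraries, since the median correlation of deviations was -0.01 for same-numbered libraries of different mice (lowest -0.28, highest 0.22), and 5 of 21 libraries had their best match in a library of the same number.

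Log2 fold changes ranged with a mouse left out from -0.31 to 1.29 for Nppa, from -0.30 to 0.51 for Acta1 and from -0.16 to 0.12 for Xirp2. In the k-labelled mice they were -0.18 for Nppa, -0.19 for Nppb, -0.39 for Acta1 and -0.0643 for Rcan1. With Notch3-/- mouse 3 alone they were 0.0121 for Ankrd1, -0.0069 for Rcan1, 0.13 for Xirp2 and 0.44 for Myl7. With technical library 2 alone Xirp2 was at 0.0906. The difference in log2 ratio ranged with a mouse left out from -0.40 to 0.25 for Myh7 to Myh6, from -0.0205 to 0.89 for Acta1 to Actc1 and from -0.95 to 0.19 for Myl7 to Myl2. It was -0.12 for Acta1 to Actc1 in the k-labelled mice, 0.0875 for Myh7 to Myh6 and 0.595 for Myl7 to Myl2 with technical library 2 alone, and 0.23 for Myl4 to Myl3 with technical library 3 alone. Between 4 and 34 counts per mouse limit what can be said of Myl4 and Myl7.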
